A study of Homo sapiens with 24 samples.

Results

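Expression of the glycolysis and hypoxia response genes, together with the adenylate kinase gene *AK4*, was followed through neural induction of hiPSCs with and without *ROR2* knockdown. The 39 genes were chosen by function (glucose transporters, glycolytic enzymes, regulators of glycolysis and lactate export, other targets of the hypoxia-inducible factors, and the HIF alpha subunits). Earlier results of these data were known when the list was drawn up, and *AK4* was added because its difference between the cell lines was already known from these arrays. Of the 39 genes, 36 had a transcript cluster of their own among the 33616 genes with one, while *PFKFB4*, *SLC16A3* and *CA9* were not analysed here. The values of *AK4* on days 14 and 21 are therefore described without a test, and counts of members cover the 35 other genes.

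R-2A hiPSCs (HiPS-RIKEN-2A, an established line) had received, by lentivirus, either an shRNA that targets *ROR2* (giving *ROR2* KD cells) or one without a mammalian target (giving sh-C cells), and both lines had been selected with puromycin. Which *ROR2* shRNA the arrays used is not given in the sources used here. Total RNA was hybridized to 24 Clariom D arrays, with 3 biological replicates of each line undifferentiated (day 0) and on days 7, 14 and 21 of induction to neural stem/progenitor cells (NS/PCs) in monolayer on Matrigel with inhibitors of SMAD signaling, with passage at each of these days. Nothing in the labels shows that replicates were transduced separately. P-values therefore measure the spread between replicates, and the knockdown cannot be told apart from other differences between the 2 lines. Per the study's methods the cultures were kept in humidified air with added CO2, with no low oxygen step described, and only RNA was measured.

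Glycolysis splits glucose to pyruvate in the cytosol, and lactate dehydrogenase reduces pyruvate to lactate. The HIF alpha subunits are hydroxylated by the EGLN enzymes and degraded when oxygen is plentiful; otherwise they pair with *ARNT* and bind the core motif ACGTG near genes of glucose uptake, glycolysis, angiogenesis and mitophagy. Pluripotent cells are known for a high glycolytic rate, which neural differentiation generally lowers. *AK4* is an adenylate kinase of the mitochondrial matrix and has been described as a HIF-1 target.

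The values are log2 signals, so a difference of 1 is a 2-fold change, and a level can be compared between arrays but not between genes. Each array's background level, taken as the 95th percentile over 23 background probe sets, lay between 7.30 and 9.97. Of the 35 genes, 22 lay above it on all 24 arrays, 8 on some and 5 on none (*PFKFB3*, *NDRG1*, *EGLN3*, *ANKRD37* and *EPAS1*). The targeted gene, *ROR2*, was lower in *ROR2* KD cells by 2.51 on day 0, 2.62 on day 7 and 2.56 on day 14 (limma, adjusted p = 0.000165, 5.85e-05 and 1.98e-06), and differed by -0.89 on day 21 without passing (adjusted p = 0.0823). Its signal was above background only on the sh-C arrays of day 7, so these differences are not given as folds. Of the pluripotent cell markers, 6 of 6 measured were above background on all arrays of day 0, while 0 of 7 neural crest and 0 of 7 mesoderm and endoderm markers were above background on all arrays of any group. The 8 NS/PC markers had mean log2 signals of 9.42 to 9.92 on day 0 and 14.26 to 14.64 on day 14, when all 8 were above background in both lines. The test was limma on all 24 arrays, and a gene counted as called where its p, adjusted over all transcript clusters, was under 0.05 and its fold change was above 2. Comparisons at neighbouring days share arrays and are not independent.

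The promoters of the genes the results turn on show where the HIF core motif lies. Promoter sequence from RefSeq (GRCh38.p14) covered 250 bases before to 50 after a gene's start and was held for 35 of the 39 genes (not for *SLC2A3*, *BNIP3L*, *VEGFA* and *NDRG1*). In the window of the first listed start, ACGTG on either strand occurred in 15 of the 35 genes (42.9%), in 8 of 17 glycolytic enzymes and in 6 of 10 other hypoxia targets, beside 21.6% of the 27305 genes with a window. The palindrome CACGTG, which is read as a match on each strand, occurred in 6 of the 35 (17.1%) and in 7.43% of all genes. The stretches below end before the start site, run 5′ to 3′ on the strand of the gene and carry ACGTG, or its reverse complement CACGT, in capitals.
AK4 (chr1:65147430-65147489, plus strand): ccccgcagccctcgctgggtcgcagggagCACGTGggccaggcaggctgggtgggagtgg
LDHA (chr11:18394460-18394519, plus strand): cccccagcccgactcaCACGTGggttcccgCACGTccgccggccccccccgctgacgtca
ALDOC (chr17:28576896-28576955, minus strand): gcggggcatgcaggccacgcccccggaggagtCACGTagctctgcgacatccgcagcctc
PDK1 (chr2:172556030-172556089, plus strand): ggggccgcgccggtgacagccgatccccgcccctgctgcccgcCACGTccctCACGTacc
HK2 (chr2:74834049-74834108, plus strand): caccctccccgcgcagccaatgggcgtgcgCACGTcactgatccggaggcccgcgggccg
GAPDH (chr12:6535154-6535213, plus strand): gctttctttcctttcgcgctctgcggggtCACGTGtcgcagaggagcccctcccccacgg
BNIP3 (chr10:131982027-131982086, minus strand): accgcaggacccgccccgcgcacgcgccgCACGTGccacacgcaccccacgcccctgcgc
DDIT4 (chr10:72273769-72273828, plus strand): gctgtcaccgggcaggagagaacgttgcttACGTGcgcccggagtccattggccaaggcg
The stretch of *PDK1* belongs to its second listed start, and the others to the first. *AK4*, *GAPDH* and *BNIP3* each held 1 palindrome CACGTG in the stretch shown, *LDHA* held a palindrome and 1 further match, and *PDK1* held 2 separate matches just before its start. Of the genes shown, *GAPDH* and *BNIP3* were not called between the cell lines on any day, and *DDIT4* was higher in *ROR2* KD cells. The first windows of *SLC2A1*, *ENO1*, *PFKL* and *PDK1* did not hold ACGTG, so *PDK1* is not among the genes counted with the motif above. A match describes letters only, and binding was not measured.

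In the first week of induction most glycolytic enzymes fell in both cell lines, while the other hypoxia targets moved in both directions. Between days 0 and 7, 13 of 17 enzymes fell in sh-C cells (median change of all 17, -1.70) and 14 in *ROR2* KD cells (median -2.12), and 0 rose in either line. The 13 that fell in sh-C cells were among the 14 that fell in *ROR2* KD cells, which also included *PFKL* (-1.20, adjusted p = 0.00103; -0.94 and no longer called without *ROR2* KD day 0 replicate 1). Of the 12 measured hypoxia targets, 3 rose and 2 fell in sh-C cells (median 0.14), and 2 rose and 4 fell in *ROR2* KD cells (median -0.32). For the 7 targets whose mean over all arrays exceeded the mean background level, a choice made after seeing the data, the medians were 0.93 and 0.41. The sign of the median in *ROR2* KD cells thus depended on the dim targets. The medians of all genes were -0.23 and -0.14.

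Over all 35 genes, 20 fell and 3 rose in sh-C cells, where 17.4% of all genes fell and 10.2% rose. In *ROR2* KD cells 20 fell and 2 rose, beside 14.8% and 10.9% of all genes. Of the 8572 genes whose mean signal over all arrays exceeded the mean background level, a set defined after seeing the data, 29.7% fell in sh-C cells and 25.1% in *ROR2* KD cells. Of the 13 measured enzymes of the citric acid cycle, which were not among the members, 11 fell in each line (medians -1.92 and -1.72).

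The hexokinases, which trap glucose as glucose 6-phosphate, both fell. *HK1* was at 13.74, 13.81 and 13.69 on the sh-C arrays of day 0 and at 9.74, 9.68 and 9.81 on day 7, a fall to 6.23% (change -4.01, SE 0.24, adjusted p = 7.37e-12). In *ROR2* KD cells it went from 13.73, 13.44 and 13.91 to 10.14, 9.48 and 9.04, a fall to 5.66% (adjusted p = 4.61e-12). The days did not overlap in either line. *HK2* fell from 9.80, 9.39 and 9.76 to 7.44, 7.82 and 8.01 in sh-C cells and from 10.20, 10.30 and 10.13 to 7.71, 7.83 and 8.0 in *ROR2* KD cells, in both cases to a level under background. On day 0 it was above background on 1 of 3 sh-C arrays and on all *ROR2* KD arrays. The background levels of the sh-C arrays of day 0 were 9.97, 9.50 and 9.41, so no fold is given for sh-C cells. Set against the background level of day 7, the bound for the fall in *ROR2* KD cells was 3.78-fold, but it is not a firm minimum. The *ROR2* KD arrays of day 0 lay not far above their own background levels (9.69, 8.96 and 9.26), which were higher than those of day 7.

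*ALDOC*, the aldolase typical of brain, changed by -4.59 in sh-C cells and by -4.37 in *ROR2* KD cells, and was under background on 5 of 6 arrays of day 7. Its sh-C arrays were at 12.76, 12.14 and 12.47 on day 0, and the fall in sh-C cells was at least 15.3-fold. The called changes of *GPI*, which isomerizes glucose 6-phosphate, were -3.15 and -3.14, and those of the platelet-type phosphofructokinase *PFKP* were -3.07 and -2.94. Between these and the smallest changes lay *PGAM1*, a phosphoglycerate mutase (-2.35 and -2.16), *LDHA* (-1.78 and -2.20), *ALDOA* (-1.77 and -2.12), *PKM* (-1.70 and -2.21), the triose phosphate isomerase *TPI1* (-1.63 and -2.05), the phosphoglycerate kinase *PGK1* (-1.51 and -2.06) and *ENO1* (-1.45 and -1.65). On day 7 the *ROR2* KD arrays were spread widely, as for *PKM* at 14.42, 13.85 and 13.26 against 14.34, 14.27 and 14.26 in sh-C cells. The mean over the enzymes was spread in the same order, at 12.94, 12.52 and 12.27 against 12.75, 12.89 and 12.74. *ROR2* KD replicate 1 thus lay above all sh-C arrays of that day. The smallest change among the 13 enzymes called in both lines was that of *GAPDH*, -1.08 (adjusted p = 0.000103) and -1.21 (adjusted p = 2.87e-05), with sh-C arrays at 19.35, 19.33 and 19.24 on day 0 and 18.19, 18.41 and 18.10 on day 7. The highest value on an array was 19.52 or more, so *GAPDH* lay near the top of the range. Enzymes not called in either line were the muscle-type phosphofructokinase *PFKM* (0.53 and 0.83), *ENO2*, the neuronal enolase (-0.12 in each line), and *LDHB*, the lactate dehydrogenase subunit common in oxidative tissues (-0.57 and -0.65). Of these, *ENO2* was under background on all arrays of both days. *GAPDH*, *PGK1*, *PGAM1*, *ENO1*, *LDHA* and *LDHB* have near-identical copies elsewhere in the genome with which probes may be shared.

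*AK4* fell with the enzymes. Its signal was 13.55, 13.11 and 13.30 on the sh-C arrays of day 0 and 10.27, 9.64 and 9.84 on day 7, a fall to 9.47% (change -3.40, SE 0.20, adjusted p = 7.95e-12). In *ROR2* KD cells it went from 12.90, 13.30 and 13.28 to 9.38, 9.36 and 8.94, a fall to 6.55% (change -3.93, SE 0.20, adjusted p = 6.81e-13). *SLC2A3* (GLUT3), a glucose transporter of high affinity, also fell in both lines (-2.29 and -2.33), while the ubiquitous transporter *SLC2A1* (GLUT1) was not called (0.02 and -0.03). *PDK1*, the kinase that switches off pyruvate dehydrogenase, fell in both (-1.36 and -1.81).

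**Figure D1:**
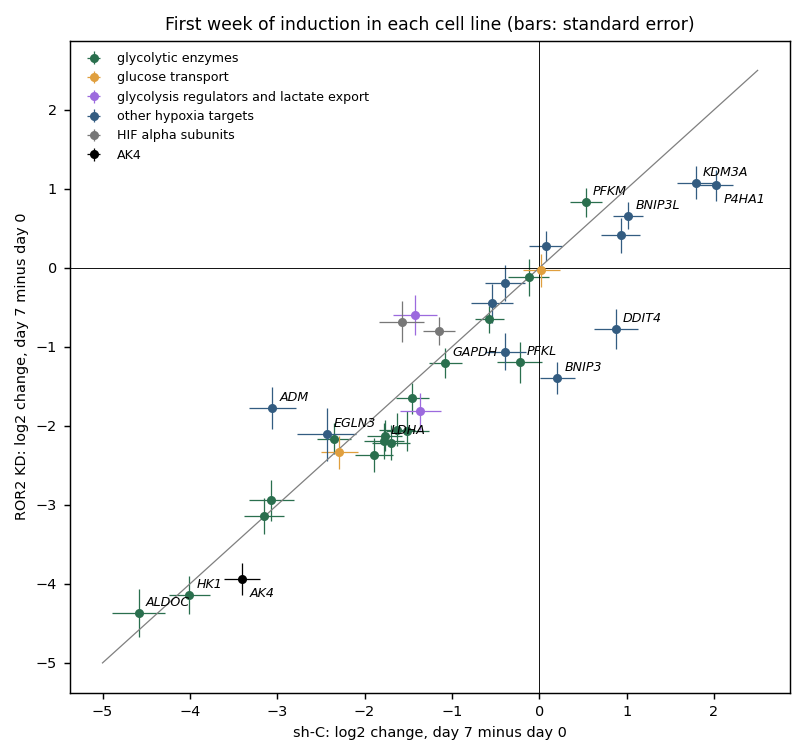
Log2 change between days 0 and 7 of each measured gene in sh-C cells (horizontal) and *ROR2* KD cells (vertical), with standard errors of the model; the diagonal marks equal change in both lines. The glycolytic enzymes lie between -4.59 and 0.53 in sh-C cells, whereas *P4HA1* and *KDM3A* lie above 1 in both lines and *BNIP3* and *DDIT4* lie farthest below the diagonal.

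The genes that rose in the first week were hypoxia targets outside glycolysis. *P4HA1*, a subunit of the prolyl hydroxylase that matures collagen, rose from 11.07, 10.93 and 11.11 to 13.08, 13.25 and 12.85 in sh-C cells (4.07-fold, adjusted p = 2.85e-08) and from 11.64, 11.34 and 11.53 to 12.95, 12.57 and 12.14 in *ROR2* KD cells (2.07-fold, adjusted p = 0.000278). *KDM3A*, a histone H3 lysine demethylase, rose by 1.79 and 1.08, and because it was under background on the sh-C arrays of day 0 the first of these is a rise of at least 1.96-fold. *BNIP3L*, a mitophagy receptor, rose by 1.02 in sh-C cells, and its difference of 0.66 in *ROR2* KD cells was under the fold limit. Some rises lay near the fold limit. That of *P4HA1* in *ROR2* KD cells was no longer called without *ROR2* KD day 0 replicate 2 or day 7 replicate 1 (0.85 at the lowest), that of *KDM3A* without *ROR2* KD day 7 replicate 2 (0.96), and that of *BNIP3L* in sh-C cells without sh-C day 0 replicate 2 or day 7 replicate 1 (0.92 at the lowest). *ADM*, the vasodilator peptide adrenomedullin, was called lower in both lines (-3.06 and -1.77). It was above background on 2 of 3 sh-C and 1 of 3 *ROR2* KD arrays of day 0 and on 0 of 6 arrays of day 7. No fold is given, because its day 0 signal lay near the background level of day 0. *EGLN3*, an oxygen sensor hydroxylase, was called lower (-2.43 and -2.11) but was under background throughout. *HIF1A* fell by 1.15 in sh-C cells (adjusted p = 2.7e-05) while its change of -0.80 in *ROR2* KD cells (adjusted p = 0.00167) was under the fold limit.

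*EGLN1*, the main hydroxylase that marks HIF alpha subunits for degradation, moved the other way in steps that each stayed under the fold limit. Its sh-C arrays were at 8.17, 8.14 and 8.51 on day 0, 9.09, 9.24 and 9.28 on day 7, 10.15, 10.10 and 10.09 on day 14, and 10.85, 10.93 and 10.82 on day 21, with no overlap between the days. All arrays of day 0 lay under background in both lines, and the level of day 7 did not exceed the background level of day 0, so no fold is given for the first week. The *ROR2* KD arrays reached 10.96, 10.93 and 10.80 on day 21 and overlapped those of sh-C cells there. *P4HA2*, another collagen prolyl hydroxylase, was called lower in *ROR2* KD cells in the first week (-1.06, with no call and -0.86 without *ROR2* KD day 0 replicate 1) and in sh-C cells in the last (-1.03, with no call without sh-C day 14 replicate 3 or day 21 replicate 1, -0.84 at the weakest). It was under background on all arrays of these 4 groups.

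From day 7 to day 14 the fall went on for fewer genes. In sh-C cells 9 of 35 fell and 2 rose (3.1% and 3.97% of all genes), and in *ROR2* KD cells 11 fell and 1 rose (3.73% and 5.16%). The rises were those of *PFKFB3*, under background, in both lines and of *VEGFA* in sh-C cells. The 7 genes that fell in both lines were *SLC2A3*, *PFKP*, *PFKM*, *PGK1*, *LDHA*, *DDIT4* and *P4HA1*. *LDHA*, which makes lactate from pyruvate, changed by -1.89 in sh-C cells and by -3.54 in *ROR2* KD cells. The fall of *PFKM* in sh-C cells was -0.96 and no longer called without sh-C day 14 replicate 2, and that of *PGK1* in *ROR2* KD cells was -0.92 without *ROR2* KD day 7 replicate 1. *PDK1* was called lower in *ROR2* KD cells alone (-1.23, adjusted p = 0.00123, against -0.14 in sh-C cells) and the angiogenic factor *VEGFA* higher in sh-C cells alone (1.23, adjusted p = 0.0012, against 0.62 in *ROR2* KD cells). The test of the difference between the lines did not pass for either (adjusted p = 0.304 and 0.73). From day 14 to day 21, 5 of 35 fell in each line (4.69% of all genes in sh-C and 5.75% in *ROR2* KD cells), with *PFKP*, *VEGFA* and *P4HA1* in common. Of the 8572 brighter genes 10.3% fell in sh-C and 14.2% in *ROR2* KD cells, near the share of the 26 members as bright, of which 4 fell in each line (15.4%). *PGAM1* was called lower in *ROR2* KD cells (-1.02, adjusted p = 0.00128) and not in sh-C cells (-0.32), but the test of the difference between the lines did not pass (adjusted p = 0.619). The call was lost without *ROR2* KD day 14 replicate 1 or day 21 replicate 2. In the same interval 0 rose in sh-C cells (2.64% of all genes) and *HK1*, the 1 of 35 called, rose in *ROR2* KD cells (1.38, adjusted p = 0.000457; 3.21% of all genes).

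**Figure D2:**
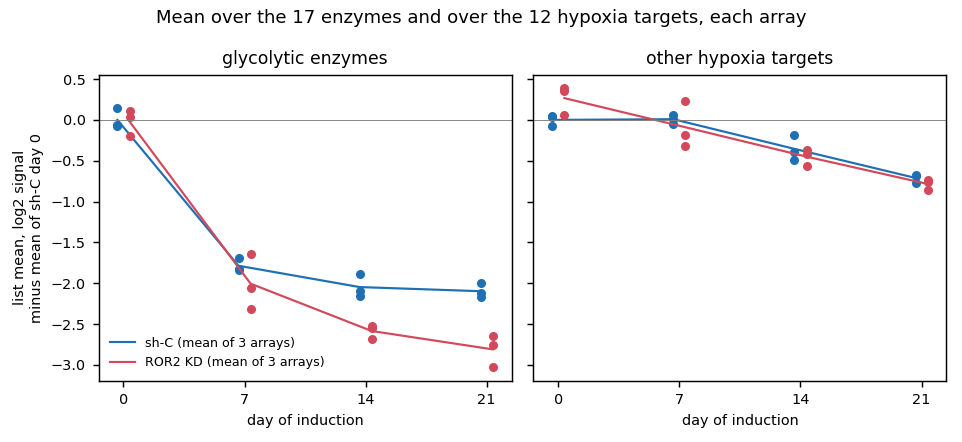
Mean log2 signal of the 17 glycolytic enzymes (left) and the 12 measured hypoxia targets (right) on each array by day of induction, relative to the mean of the sh-C arrays of day 0; points are arrays and lines join the means of 3 arrays. The enzyme mean fell in both lines by day 7 and did not overlap between the lines on days 14 and 21, whereas the mean of the hypoxia targets overlapped on days 7, 14 and 21.

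The cell lines were next compared at each day. On days 14 and 21 most enzymes had a lower mean signal in *ROR2* KD cells, with a median difference over all 17 of -0.48 and -0.62, against -0.04 on day 0 and -0.19 on day 7. Differences were negative for 15 of 17 enzymes on day 14 and for 14 on day 21. The 12 hypoxia targets had medians of 0.17, -0.12, -0.13 and -0.00 on days 0, 7, 14 and 21, and those of all genes were -0.10, 0.01, -0.03 and -0.02. With only the 7 hypoxia targets whose mean exceeded the mean background level, again a choice made after seeing the data, their median was 0.47 on day 0 and -0.18 on day 7. It was -0.27 on day 14 and -0.33 on day 21, nearer to that of the enzymes. Per array, the mean of the 12 targets on day 0 was 9.45 to 9.57 in sh-C and 9.59 to 9.92 in *ROR2* KD cells, without overlap. Per array, the enzyme mean was 12.42 to 12.70 in sh-C and 11.90 to 12.05 in *ROR2* KD cells on day 14, and 12.41 to 12.58 and 11.56 to 11.93 on day 21.

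Few single genes passed the test. Of the 35, 0 were called lower and 1 higher on day 0 (0.0535% and 0.0268% of all genes), and 0 in either direction on day 7 (0.164% and 0.113%), where 8 had an unadjusted p under 0.05. On day 14, 4 were lower and 0 higher (0.77% and 0.934%), and on day 21, 5 were lower and 2 higher (2.51% and 2.16%). Among the 8572 brighter genes 1.5% were lower on day 14 and 6.35% on day 21. With only the arrays of the 2 groups compared in the model, the day 21 calls of *HK2*, *PFKL*, *ENO1* and *DDIT4*, the day 14 call of *SLC2A1* and the day 0 call of *DDIT4* were lost (adjusted p = 0.0903, 0.218, 0.0577, 0.0661, 0.0569 and 0.521). For array values the study gave adjusted p-values from Transcriptome Analysis Console. An ordinary t-test for each gene, which does not pool the spread over genes, was run here as an alternative and called 0 members on days 0, 14 and 21. Its adjusted p for *LDHA* was 0.107 on day 14 and 0.0811 on day 21, for *PDK1* 0.313 and 0.0559, for *SLC2A1* 0.235 and 0.167, and for *DDIT4* 0.602 on day 0 and 0.107 on day 21.

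**Figure D3:**
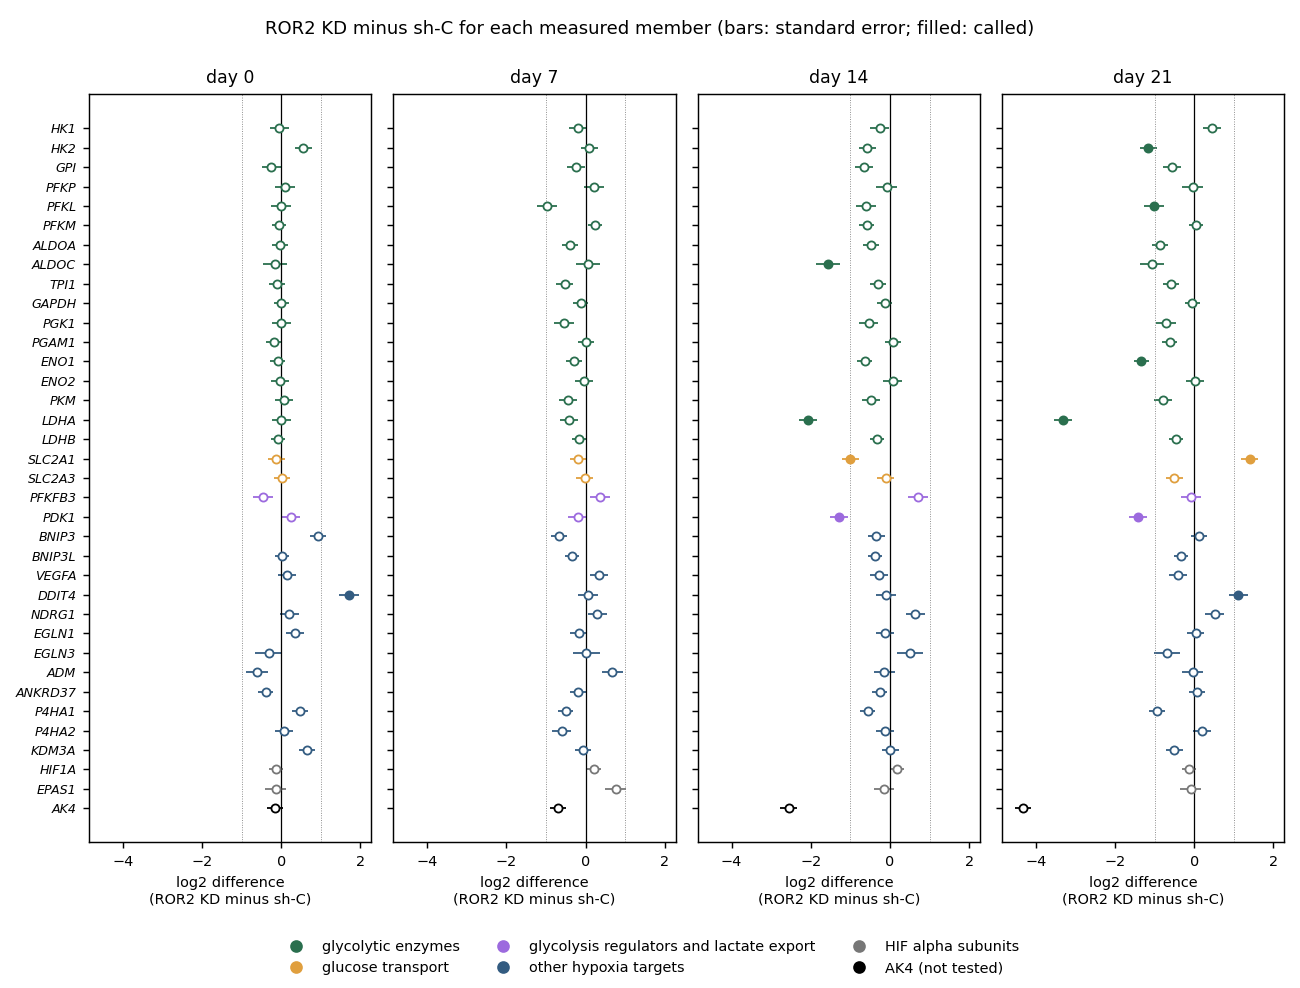
Difference between *ROR2* KD and sh-C cells (log2) of each measured gene on days 0, 7, 14 and 21, with the standard error of the model; filled points passed the test, *AK4* was not tested, and dotted lines mark a 2-fold change. *LDHA*, *PDK1*, *ENO1*, *HK2* and *PFKL* lie below -1 on day 21, and *SLC2A1* moves from -1.005 on day 14 to 1.40 on day 21.

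*AK4*, which was chosen for this difference, had a lower signal in *ROR2* KD cells late in induction. On day 14 its signal was 8.81, 8.93 and 9.09 on the sh-C arrays and 6.35, 6.18 and 6.62 on the *ROR2* KD arrays, and on day 21 it was 10.58, 10.72 and 10.71 against 6.36, 6.30 and 6.36. All *ROR2* KD arrays of these days lay under background and all sh-C arrays above it. The differences were -0.16 on day 0, -0.69 on day 7, -2.56 on day 14 and -4.33 on day 21 (SE 0.20 each), and the lines overlapped only on day 0. Set against the background level of the *ROR2* KD arrays, *AK4* was at least 7.64-fold lower on day 21. The same bound was 2.10-fold on day 14, but it is not a firm minimum. The sh-C arrays of that day lay close to their own background levels (8.64, 8.54 and 8.87), which were higher than those of the *ROR2* KD arrays. From day 7 to day 14 the change in sh-C cells was -0.98. For the fall in *ROR2* KD cells between these days the bound was 2.57-fold, again not a firm minimum. The *ROR2* KD arrays of day 7 lay close to their own background levels (8.57, 8.11 and 8.19), which were higher than those of day 14. From day 14 to day 21 the difference was 1.73 in sh-C cells, without overlap of the days, and the *ROR2* KD arrays of these days overlapped under background. Of the 4 other adenylate kinase genes measured, which interconvert adenine nucleotides in other compartments or tissues, only *AK5*, an isoform typical of brain, was called between the lines, and it was higher on day 21 (1.94, adjusted p = 2.91e-05).

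*LDHA* had the largest negative difference of the 35 tested genes on days 14 and 21. On day 14 it was at 13.32, 13.57 and 13.66 in sh-C cells and at 11.50, 11.20 and 11.66 in *ROR2* KD cells, a 4.17-fold difference (-2.06, SE 0.23, adjusted p = 8.3e-06). On day 21 it was at 14.002, 13.90 and 14.58 against 10.81, 10.59 and 11.15, or 10.1% (-3.31, SE 0.23, adjusted p = 1.25e-09). The lines did not overlap on either day and all values were above background, whereas on day 0 the difference was 0.00 (adjusted p = 0.998). On day 7 the *ROR2* KD arrays (15.40, 14.96 and 14.62) overlapped the sh-C arrays (15.39, 15.59 and 15.24), with a difference of -0.41 (adjusted p = 0.541). The partner subunit *LDHB* differed by -0.32 on day 14 and -0.47 on day 21, neither of which passed. The difference of *LDHA* itself moved by -1.65 between days 7 and 14 (SE 0.32, adjusted p = 0.0218), the 1 of 35 genes called lower in that test (0.327% of all genes lower, and 0.547% higher with 0 of 35). This call was lost without any 1 of 6 of the 12 arrays used, sh-C day 7 replicates 1 and 3, sh-C day 14 replicates 2 and 3, *ROR2* KD day 7 replicate 2 and *ROR2* KD day 14 replicate 2 (adjusted p up to 0.0909), and with median centring (-1.52, adjusted p = 0.0507).

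*PDK1* was lower on both days. On day 14 its signal was 9.76, 9.9996 and 10.60 in sh-C and 8.84, 8.87 and 8.77 in *ROR2* KD cells (-1.29, SE 0.23, adjusted p = 0.00429), and on day 21 it was 9.96, 9.96 and 10.19 against 8.52, 8.68 and 8.67 (-1.42, SE 0.23, adjusted p = 0.000531). The lines did not overlap, but sh-C replicate 3 stood above the other sh-C arrays on day 14, and without it the difference was -1.05 (adjusted p = 0.0567). The other measured regulator, *PFKFB3*, which makes an activator of phosphofructokinase, was under background throughout and was not called between the lines. Among 10 measured genes of pyruvate entry and lactate transport outside the list, such as the pyruvate dehydrogenase subunits, 0 were called between the lines on any day, with 2, 2, 4 and 5 at an unadjusted p under 0.05.

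**Figure D4:**
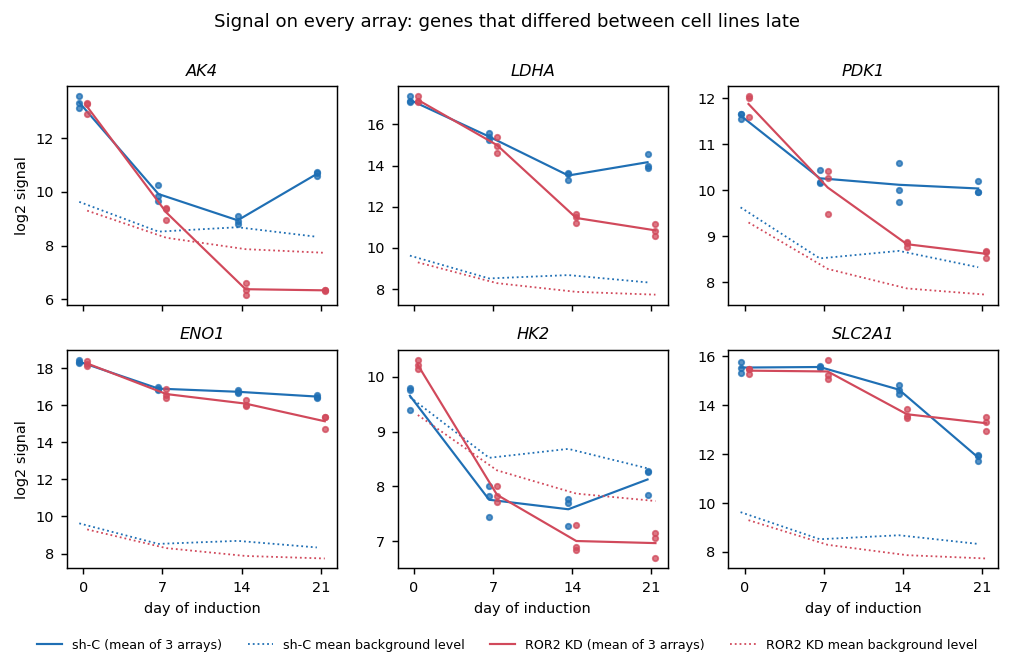
Log2 signal of *AK4*, *LDHA*, *PDK1*, *ENO1*, *HK2* and *SLC2A1* on each array by day of induction; points are arrays, solid lines join the means of 3 arrays and dotted lines the mean background level of each cell line. *AK4*, *LDHA* and *PDK1* of the 2 lines separate on days 14 and 21, *HK2* is under background from day 7, and the order of the lines for *SLC2A1* turns between days 14 and 21.

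Further enzymes were lower on 1 of the days. *ENO1*, the ubiquitous enolase, was at 16.40, 16.46 and 16.53 in sh-C and at 15.35, 14.70 and 15.35 in *ROR2* KD cells on day 21, or 39.7% (-1.33, SE 0.19, adjusted p = 0.000119), with no overlap; it has 2 clusters, whose mean gave -0.71 (adjusted p = 0.0165). *PFKL*, the liver-type phosphofructokinase, was at 11.43, 11.21 and 11.76 against 10.91, 10.14 and 10.29 (-1.02, SE 0.26, adjusted p = 0.0304). This call was lost without sh-C day 21 replicate 1 or 3 or *ROR2* KD day 21 replicate 2 or 3 (adjusted p = 0.0883, 0.162, 0.182 and 0.1). *HK2* was at 7.85, 8.26 and 8.27 against 7.15, 7.07 and 6.69 (-1.16, SE 0.21, adjusted p = 0.00199), but both lines were under background, as were both for *ALDOC* on day 14 (7.97, 8.52 and 8.18 against 6.37, 6.57 and 7.05; -1.56, SE 0.31, adjusted p = 0.0103). *ALDOC* was no longer called without sh-C day 14 replicate 2 (adjusted p = 0.0903) or *ROR2* KD day 14 replicate 1 (0.0793) or 2 (0.0695). *ALDOA*, the main aldolase, differed by -0.88 on day 21 (adjusted p = 0.0149) without reaching the fold limit, and *PKM*, the pyruvate kinase of most dividing cells, differed by -0.79 (adjusted p = 0.0603). *GAPDH*, which catalyzes the middle step of the pathway, differed by -0.14 on day 14 and -0.05 on day 21 and did not pass.

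*SLC2A1* turned its sign between days 14 and 21. On day 14 it was at 14.61, 14.47 and 14.82 in sh-C cells and at 13.87, 13.48 and 13.54 in *ROR2* KD cells (-1.005, SE 0.21, adjusted p = 0.0195), and on day 21 it was at 11.72, 11.91 and 11.95 against 13.53, 12.94 and 13.32 (1.40, SE 0.21, adjusted p = 0.000191). The lines did not overlap on either day. In sh-C cells *SLC2A1* fell by 2.77 between these days (adjusted p = 4.66e-09), its change of -0.37 in *ROR2* KD cells did not pass (adjusted p = 0.356), and the difference between the lines moved by 2.41 (SE 0.30, adjusted p = 5.8e-05), the 1 of 35 genes called higher in that test (0.83% of all genes higher, and 0.55% lower with 0 of 35). The day 14 call sat at the fold limit. It was lost without sh-C day 14 replicate 1 (adjusted p = 0.0779) or 3 (0.141), or *ROR2* KD day 14 replicate 2 (0.146) or 3 (0.12), and the difference was -0.99 with median centring or quantile normalization. *SLC2A3* differed by -0.11 on day 14 and -0.50 on day 21 and was not called.

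Of the hypoxia targets, only *DDIT4*, an inhibitor of mTORC1 that is also induced by other stresses, was called between the lines, and it was higher in *ROR2* KD cells. On day 0 it was at 10.38, 10.02 and 10.45 in sh-C and at 12.14, 11.68 and 12.13 in *ROR2* KD cells, a 3.25-fold difference (1.70, SE 0.25, adjusted p = 0.00788). On days 7 and 14 the lines overlapped (0.06 and -0.10), and on day 21 *DDIT4* was at 9.28, 9.61 and 9.51 against 10.66, 10.49 and 10.60 (1.12, SE 0.25, adjusted p = 0.0125). The day 21 call was lost without sh-C day 21 replicate 1 (adjusted p = 0.0784) or *ROR2* KD day 21 replicate 1 (0.0532). Of 10 genes of the amino acid stress response, some of which share regulators with *DDIT4*, 0 were called on day 0, 1 was higher on day 14 (*SLC7A11*), and on day 21 1 was higher (*VLDLR*) and 1 lower (*SLC7A11*). *P4HA1* was on day 21 at 9.92, 10.01 and 10.03 against 9.15, 8.82 and 9.15, with a difference of -0.95 (adjusted p = 0.00659) that did not reach the fold limit, but did so without *ROR2* KD day 21 replicate 1 or 3. *VEGFA* (-0.27 and -0.42 on days 14 and 21) and *KDM3A* (0.01 and -0.50) did not pass. *NDRG1*, a gene induced by many stresses, and *ANKRD37*, a small ankyrin repeat protein, were under background and were not called on any day.

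*BNIP3*, a mitophagy receptor like *BNIP3L*, was at 12.20, 12.15 and 12.26 in sh-C and at 13.37, 12.87 and 13.18 in *ROR2* KD cells on day 0 (0.94, SE 0.20, adjusted p = 0.097). On day 7 it was at 12.65, 12.37 and 12.21 against 12.15, 11.45 and 11.65 (-0.67, adjusted p = 0.194). Neither difference passed, and the lines did not overlap on either day. The difference between the lines moved by -1.60 between days 0 and 7 (SE 0.29, adjusted p = 0.0392), the 1 of 35 genes called lower in that test (0.0268% of all genes lower, and 0.0476% higher with 0 of 35). In *ROR2* KD cells *BNIP3* fell in this week by 1.39 (adjusted p = 1.2e-05), and in sh-C cells its difference of 0.21 did not pass (adjusted p = 0.534). The call for the difference was lost without any 1 of 10 of the 12 arrays, all but *ROR2* KD day 0 replicate 2 and *ROR2* KD day 7 replicate 1 (adjusted p up to 0.147), and with only the arrays of the 4 groups in the model (adjusted p = 0.229). The corresponding value of *DDIT4*, -1.65, had an adjusted p of 0.0937.

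**Figure D5:**
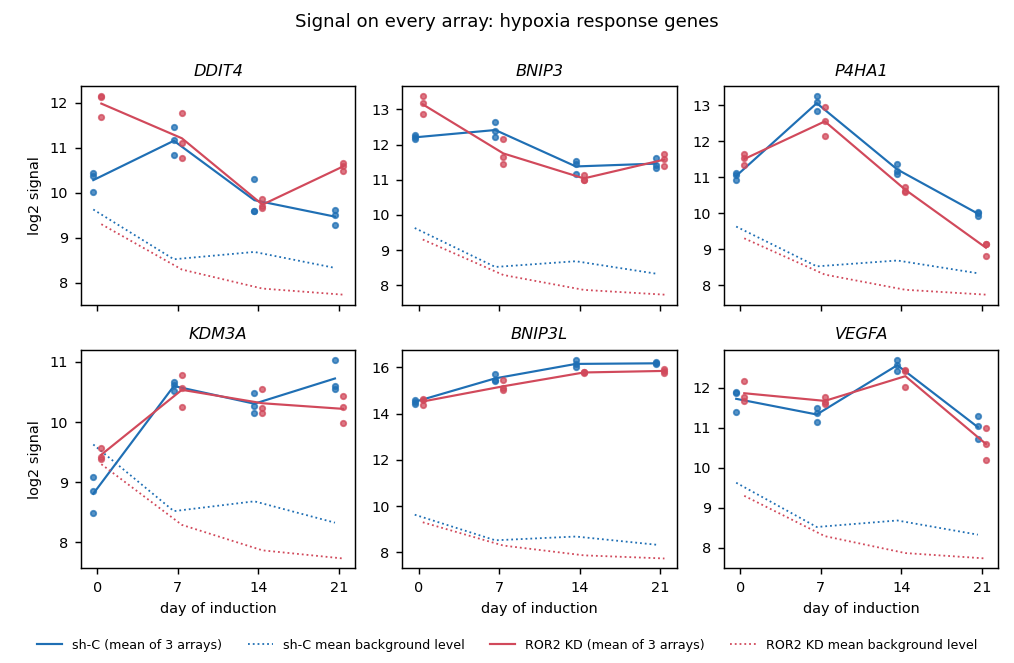
Log2 signal of *DDIT4*, *BNIP3*, *P4HA1*, *KDM3A*, *BNIP3L* and *VEGFA* on each array by day of induction; points are arrays, solid lines join the means of 3 arrays and dotted lines the mean background level of each cell line. *DDIT4* is apart between the lines on days 0 and 21, and *P4HA1* and *KDM3A* rise by day 7 in both lines.

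*HIF1A*, the oxygen-regulated subunit of HIF-1, did not differ by more than 0.21 between the lines on any day, and its RNA need not follow its protein. It was at 16.18, 16.35 and 16.32 in sh-C and 16.63, 16.36 and 16.40 in *ROR2* KD cells on day 14, without overlap, and at 16.38, 16.16 and 16.39 against 16.13, 16.06 and 16.35 on day 21. *EPAS1*, which encodes HIF-2 alpha, was under background on all arrays. Of 6 measured genes of the HIF machinery, such as *ARNT* and *VHL*, 0 were called between the lines on any day.

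A further list of hypoxia targets, drawn up with the first results known, gave changes in both directions. Of 21 measured, 0 were called on days 0 and 7, 1 was higher on day 14, and 2 were higher and 5 lower on day 21 (median -0.27). The higher ones were *CITED2*, which competes with HIF for coactivators, on days 14 (3.16-fold, adjusted p = 0.000221) and 21 (1.22, adjusted p = 0.003) and the MYC antagonist *MXI1* on day 21 (1.94, adjusted p = 1.99e-06). The lower ones with the largest differences were *LOX*, which crosslinks collagen (-1.67), the lipid droplet gene *PLIN2* (-1.62) and *TMEM45A* (-1.40). Of the other glycolysis isoforms only *PGM1*, which links glycogen to glycolysis, was called (1.03 on day 21, adjusted p = 0.0112). Of 13 enzymes of the citric acid cycle and 6 of the pentose phosphate pathway 0 were called between the lines on any day. On day 21, however, 5 of the 6 pentose phosphate enzymes had negative differences (median -0.51), and 4 had an unadjusted p under 0.05. For the citric acid cycle 10 of 13 were negative (median -0.26), with 1 such p. The medians on day 14 were -0.14 and 0.01.

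Markers of other cell states moved with these differences. On day 14, 5 of 8 measured neuron markers were higher in *ROR2* KD cells, with a mean log2 signal of 11.85 to 11.86 per sh-C array and 13.09 to 13.16 per *ROR2* KD array. On day 21, 2 of 8 were higher (13.94 to 14.13 against 14.69 to 14.72). All 8 mitosis markers were called lower on day 21 (13.20 to 13.24 against 11.56 to 12.10). On day 14 0 were called, but all 8 differences were negative (median -0.69), all 8 had an unadjusted p under 0.05, and their means did not overlap (13.90 to 14.14 against 13.28 to 13.44). Of the NS/PC markers, 1 of 8 was higher and 1 lower on each of these days. Their differences ran from -1.19 to 2.23 on day 14 and from -1.10 to 10.58 on day 21 (medians 0.13 and -0.34). On day 21, 7 of 8 were above background on all sh-C arrays and 8 of 8 on all *ROR2* KD arrays. Of 6 astrocyte and oligodendrocyte markers, 1 was higher and 1 lower on day 21, with differences from -4.09 to 3.13, and 1 of 6 was above background on all arrays in each line (means of 5.39 to 5.48 against 5.21 to 5.41). Their part in the differences of the glycolysis genes was not tested. In such bulk samples, fewer cells that express a gene and less RNA per cell cannot be told apart.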

How the data were processed

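Total RNA of 24 samples was measured on Clariom D arrays. Per the labels, the authors made the deposited log2 values with RMA in Transcriptome Analysis Console. RMA makes the signal distributions of all arrays alike, so a shift of most genes in one direction would not be seen. Of 138745 probe sets, 2995 controls were left out and 135750 transcript clusters were tested. A gene was read from the brightest of the clusters that carry its symbol alone. In limma (3.58.1, in R 4.3.3), a model with a mean for each of the 8 groups was fitted over the 24 arrays, with Benjamini-Hochberg adjustment over all clusters, and the script was tested on simulated data. Replicates were compared within groups, and 0 pairs were identical. Where 1 group was not above background, folds are bounds computed against the background level of that group's arrays, as means over arrays. The background of the brighter group, which can differ between days and lines, was not taken off. All measured members were named and, of each other list, up to 4 called genes with the largest changes per comparison. The members and lists were chosen with earlier results of these data known. Alternatives covered the arrays fitted, the replicate block, normalization, filters, thresholds, an ordinary t-test for each gene and leaving out arrays. Few arrays per group limit the precision.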

Additional observations from a re-analysis of the deposited data

Results flagged for a closer look

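For 3 genes the difference between *ROR2* KD and sh-C cells itself changed between neighbouring days, by limma's test of that change over all transcript clusters. The difference of *SLC2A1* moved by 2.41 from day 14 to day 21 (adjusted p = 5.8e-05), from lower to higher in *ROR2* KD cells, and was called in each of the alternatives run and without any 1 array. The difference of *LDHA* moved by -1.65 from day 7 to day 14 (adjusted p = 0.0218), and its adjusted p lay between 0.00973 and 0.0909 over the 12 fits without 1 array. The difference of *BNIP3* moved by -1.60 from day 0 to day 7 (adjusted p = 0.0392), and its adjusted p lay between 0.00532 and 0.147 over 12 such fits. These tests use the same arrays as the comparisons at each day.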

How the results depend on the processing

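Of the 35 members, the count called between the lines on days 0, 7, 14 and 21 was 1, 0, 4 and 7, and 1 was called for the change of that difference over each week (called the weekly change of the difference). With only the arrays of the groups compared it was 0 on day 0 and 3 on day 21, and the weekly change of the difference between days 0 and 7 lost its call (0). Median centring left 0 for this change between days 7 and 14, and quantile normalization gave 2 on day 0. A variance trend gave 2 for the changes between days 0 and 7 and between days 14 and 21. Array weights gave 1 on day 7 and 2 for the change between days 14 and 21. The filter on dim clusters, with fewer clusters tested, gave 2, 3 and 3 for the changes of the difference over the 3 weeks. Without a fold limit, or with a fold above 1.5, 14 members passed between days 14 and 21 in *ROR2* KD cells, against 6. The ordinary t-test gave 0 on days 0, 14 and 21, 6 and 2 in sh-C cells from day 7 to 14 and from day 14 to 21, and 13, 3 and 3 in *ROR2* KD cells over the 3 weeks. It was not run for the changes of the difference. The 4 arrays of highest median were replicates 2 and 3 of *ROR2* KD day 7 and replicate 3 of both lines on day 21. Without them only 1 array of *ROR2* KD day 7 remained, so no counts are given for the changes that use that group. With only members of mean signal above background, the median of the hypoxia targets on day 21 was -0.33. The cause was not tested, except that the dim filter and left-out arrays change how many clusters or arrays are tested.

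Leaving out 1 array at a time gave counts between the lines of 1 to 1, 0 to 1, 2 to 3 and 5 to 7 on days 0, 7, 14 and 21. For the weekly changes it gave 22 to 24, 9 to 12 and 4 to 6 in sh-C cells and 20 to 22, 11 to 13 and 7 to 8 in *ROR2* KD cells. For the change in the difference it gave 0 to 2, 0 to 1 and 1 to 1. The enzyme median lay between -0.55 and -0.41 on day 14 and between -0.79 and -0.50 on day 21, and that of the hypoxia targets between -0.318 and -0.0668 on day 14 and between -0.149 and 0.0504 on day 21. *ENO1* on day 21 was -0.71 with the mean of its clusters, *HK2* and *PFKL* on day 21 were -0.95 and -0.80 without the 4 arrays of highest median, and 0 called single-gene differences turned their sign in the alternatives run.

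With the replicate number as a replicate block, the counts between the lines stayed at 1, 0, 4 and 7, and those of the changes in the difference at 1, 1 and 1. The numbers only share a name, since deviations of same-numbered arrays had correlations from -0.0239 to 0.224, and the best match of 6 of 12 arrays carried the same number. Depth in the sense of arrays is limited to signal over background, which 13 members did not reach on all arrays.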
